A study of Homo sapiens with 4 samples.

Results

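HNRNPK and the genes of the poly(C)-binding proteins PCBP1, PCBP2 and PCBP4 were followed by RNA-seq in UM-UC-3 cells, which are an established line from a human bladder cancer. The members were chosen by symbol and not by a filter on their values, though with earlier results of these data known. Each symbol was matched to 1 Ensembl identifier. All 4 members were listed in all 4 tables, among 27629 genes listed in at least one table and 24039 listed in every table. The series held 1 library per condition. Cells were transfected with 75 nM control siRNA, si-hnRNPK, siRNA against the long non-coding RNA lncRNA-LBCS (named si-lncRNA-LBCS in the labels, below the LBCS-labelled library) or si-PTBP1, and total RNA was taken after 48 h. Each targeting transfection used a mixture of 2 siRNAs in 1 culture, so the effect of one siRNA cannot be told apart from that of the other. The reads on listed genes ranged from 54301152 in si-hnRNPK to 70232674 in the LBCS-labelled library, and 3 reads corresponded to between 0.0427 and 0.0552 CPM (reads of a gene scaled by the library total).

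The proteins of this family bind single-stranded RNA and DNA rich in cytosine through KH (hnRNP K homology) domains. hnRNPK is an abundant, mainly nuclear protein that takes part in transcription, splicing and translation. PCBP1 and PCBP2, also called hnRNPE1 and hnRNPE2, stabilise mRNAs, control their translation and carry iron to ferritin. PCBP4 is a less studied relative. The coding sequences of PCBP1 and PCBP2 were identical at 83.5% of their aligned bases. PCBP4 was identical to PCBP1 at 67.7% and to PCBP2 at 68.1%. HNRNPK stood farther away, with 50.4% to 54.3% of aligned bases identical to the other members.

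The siRNAs are shown because their match separates the target from its relatives. The sense strand is written 5′ to 3′ over the 19 paired bases, and capitals mark the 7 bases that pair with bases 2 to 8 of the guide strand, the seed.
siRNA-1, sense strand: ggguuguagagUGCAUAAa
siRNA-2, sense strand: gccuccaucuaGAAGAGAu
Both matched HNRNPK (ENSG00000165119, minus strand of chromosome 9, 83968083 to 83980616) at every base. Coordinates here and below are those of GENCODE release 29 on GRCh38, matched by sequence or identifier, and not those of the authors' files, which were made on hg19 per the labels. The site of siRNA-1 was chr9:83972869-83972887 in exon 10 of an HNRNPK transcript with 17 exons. The site of siRNA-2 was chr9:83971998-83972016 in exon 11. Both sites lay in the coding sequence and were held by 5 of the 6 coding transcripts. The processed pseudogenes HNRNPKP1, HNRNPKP2 and HNRNPKP4 also matched both siRNAs exactly, and no other annotated gene did.

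No relative held a match without mismatches. The closest sites of siRNA-1 had 7 mismatches in PCBP1, 7 in PCBP2 and 6 in PCBP4. The closest sites of siRNA-2 had 7 mismatches in PCBP1 and 6 in PCBP2. In PCBP4 the closest site of siRNA-2 had 4 mismatches, which are in capitals in the sense-strand letters of the transcript.
PCBP4, chr3:51957905-51957923, minus strand: gcctccatctaTGGgagTt
This site lay in the 3′ UTR, and all 4 mismatches fell in the bases opposite the seed. The 7 letters that pair with the seeds, TGCATAA for siRNA-1 and GAAGAGA for siRNA-2, occurred 0 times in the longest annotated 3′ UTR of HNRNPK, PCBP1, PCBP2 or PCBP4. For comparison, TGCATAA occurred in the longest 3′ UTR of 11.1% and GAAGAGA in that of 19.7% of 11703 genes that reached 1 CPM in control siRNA or si-hnRNPK. These counts describe letters in annotated transcripts and not binding.

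The map of the transcript shows where the siRNA sites fall. On a transcript of 2942 bases, with its coding sequence from base 225 to 1616, siRNA-1 matched bases 826 to 844 and siRNA-2 bases 1043 to 1061. The RT-qPCR primers of the study for HNRNPK enclose 130 bases, from 1189 to 1318, in exons 12 to 14. The amplicon therefore begins 127 bases downstream of the second siRNA site. The RNA-seq value, in contrast, counts reads over the whole gene.

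**Figure D1:**
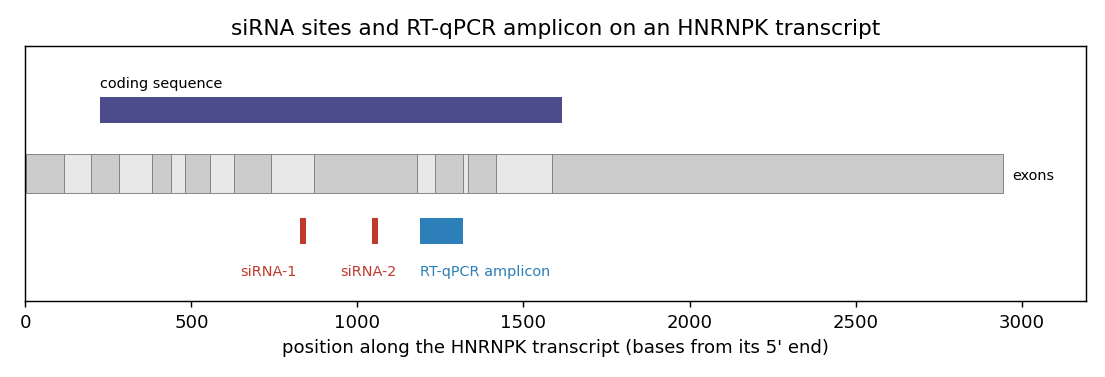
Position of the siRNA sites (red) and the RT-qPCR amplicon (blue) on an HNRNPK transcript, in bases from its 5′ end; grey blocks are exons and the dark bar is the coding sequence. Both siRNA sites lie inside the coding sequence and upstream of the amplicon, which begins at base 1189.

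HNRNPK was reduced only in the library that its siRNAs were given to, by the threshold of 2-fold used here. It was at 783.1 CPM in control siRNA, 187.8 CPM in si-hnRNPK, 807.6 CPM in the LBCS-labelled library and 656.1 CPM in si-PTBP1. These values rest on 48063, 10198, 56723 and 36787 reads. The si-hnRNPK library stood alone at the low end, 3.49 times below the next library, si-PTBP1 (95% interval 3.42 to 3.57). All intervals are exact intervals of the reads (Clopper-Pearson between libraries) and cover counting error only. With 1 library per condition no difference could be compared with the spread between cultures, so no p-value is given. In bulk RNA, fewer cells that express a gene and less RNA per cell cannot be told apart.

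The change of HNRNPK in si-hnRNPK was -2.05 on the log2(CPM + 1) scale (95% interval -2.09 to -2.02), which left 24.0% of the control level. As the target of the siRNAs, this value checks the label of the library. Among 13672 genes that reached 1 CPM in control siRNA or si-hnRNPK, 6 fell as far or farther, HNRNPK included, or 0.0439%. At the threshold of 2-fold (a difference of 1 on the log2 scale), 3.55% of these genes were higher and 3.93% lower. The change was 0.04 (0.03 to 0.06) in the LBCS-labelled library and -0.25 (-0.27 to -0.24) in si-PTBP1. The last value corresponds to 83.8% of control, and 14.4% of the genes in that library were as far below control or farther. At 2-fold, 0.378% of 13492 genes were higher and 1.01% lower in the LBCS-labelled library, and 2.92% of 13855 genes were higher and 0.613% lower in si-PTBP1.

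Per exon length, HNRNPK remained the highest member even at its reduced level. Per kb of exons, it was at 153.1 CPM in control siRNA and 36.7 CPM in si-hnRNPK. Its rank by this measure was 205 of 12820 genes in control siRNA and 931 of 12683 in si-hnRNPK. In the LBCS-labelled library and in si-PTBP1 it ranked 183 of 12670 and 213 of 13217. Among all genes it thus moved from the top 1.60% to the top 7.34%.

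**Figure D2:**
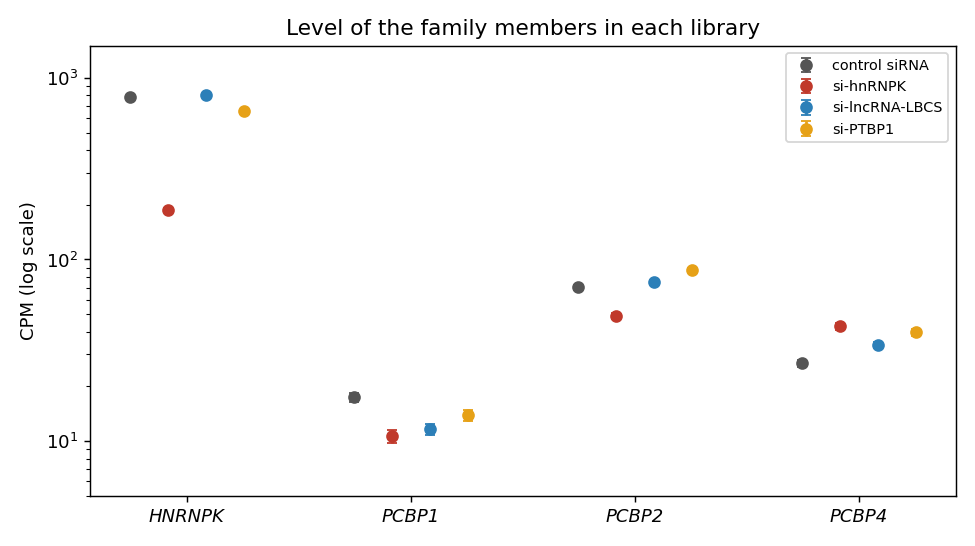
CPM (log axis) of each family member in the 4 libraries; bars are 95% exact Poisson intervals of the reads, which are smaller than most points. HNRNPK drops from 783.1 to 187.8 CPM in si-hnRNPK, while PCBP4 is lowest in control siRNA at 26.8 CPM and PCBP1 highest there at 17.4 CPM.

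PCBP1 had its highest level in the control library. It was at 17.4 CPM in control siRNA, 10.7 CPM in si-hnRNPK, 11.6 CPM in the LBCS-labelled library and 13.9 CPM in si-PTBP1, from 1067, 579, 816 and 779 reads. The si-hnRNPK, LBCS-labelled and si-PTBP1 libraries thus all lay below the control library. The difference in log2(CPM + 1) was -0.66 (-0.79 to -0.52) in si-hnRNPK and -0.54 (-0.67 to -0.42) in the LBCS-labelled library. It was -0.30 (-0.43 to -0.18) in si-PTBP1. None reached 2-fold. The levels in si-hnRNPK and in the LBCS-labelled library did not differ beyond counting error, with a ratio of 1.09 (0.978 to 1.21) between the higher and the lower. Since all 3 comparisons use the same control library, its level is part of each difference.

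The PCBP1 gene (ENSG00000169564, plus strand, chr2:70087454-70089203) is 1 exon of 1750 bases, and 52.2% of it lies opposite exons of the antisense gene PCBP1-AS1. The sources used here do not say whether strand was used in counting, so reads of both genes cannot be told apart there. Whether reads in shared exons were counted at all is not given either. PCBP1-AS1 was at 8.77 CPM in control siRNA, 6.59 in si-hnRNPK, 7.89 in the LBCS-labelled library and 9.31 in si-PTBP1. It differed from control by -0.36 in si-hnRNPK and by 0.08 in si-PTBP1 on the log2(CPM + 1) scale, so its order over the libraries was not that of PCBP1. Its part in the values of PCBP1 was not tested.

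PCBP2 was lower in si-hnRNPK and higher in si-PTBP1 than in control siRNA, in both cases by less than 2-fold. It was at 70.4 CPM in control siRNA, 49.0 CPM in si-hnRNPK, 75.0 CPM in the LBCS-labelled library and 87.8 CPM in si-PTBP1, from 4319, 2660, 5267 and 4921 reads. The difference in log2(CPM + 1) was -0.51 (-0.58 to -0.45) in si-hnRNPK, or 69.6% of control. It was 0.09 (0.03 to 0.15) in the LBCS-labelled library and 0.31 (0.26 to 0.37) in si-PTBP1. The si-hnRNPK library was the lowest and si-PTBP1 the highest, with neighbouring libraries apart by more than counting error. In si-hnRNPK, 19.5% of the genes tested lay as far below control or farther, so a difference of this size was common in that library.

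PCBP2 (ENSG00000197111, plus strand, chr12:53452102-53481162) has 26 annotated transcripts, 18 of them coding. Exons of other genes overlap 32.7% of its exon length, of which 18.8% of the length belongs to MAP3K12, a kinase gene on the opposite strand. MAP3K12 was at 44.5 CPM in control siRNA and 34.0 CPM in si-hnRNPK, a difference of -0.38 on the log2(CPM + 1) scale. It was at 32.3 CPM in the LBCS-labelled library and 42.2 CPM in si-PTBP1. MAP3K12 was therefore lower in si-hnRNPK, as PCBP2 was, but not higher in si-PTBP1. The part of MAP3K12 reads in the PCBP2 value was not tested.

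PCBP4 was the member whose level was lowest in the control library and highest in si-hnRNPK. It was at 26.8 CPM in control siRNA, 42.7 CPM in si-hnRNPK, 33.9 CPM in the LBCS-labelled library and 39.6 CPM in si-PTBP1, from 1644, 2321, 2378 and 2221 reads. The si-hnRNPK, LBCS-labelled and si-PTBP1 libraries all lay above the control library. The difference in log2(CPM + 1) was 0.65 (0.57 to 0.74) in si-hnRNPK, or 159.6% of control. It was 0.33 (0.24 to 0.42) in the LBCS-labelled library and 0.55 (0.46 to 0.64) in si-PTBP1. Among the genes tested, 8.30% in si-hnRNPK, 15.0% in the LBCS-labelled library and 14.0% in si-PTBP1 lay as far above control or farther. The ratio of si-hnRNPK to the next library, si-PTBP1, was 1.08 (1.02 to 1.14) in deposited CPM and 1.27 with median-of-ratios scaling. The same scaling brought si-PTBP1 and the LBCS-labelled library from a ratio of 1.17 to 1.07, so which libraries lay closest depended on the scale.

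PCBP4 (ENSG00000090097, minus strand, chr3:51957454-51974016) shares 9.20% of its exon length with other genes. The genes around it did not all follow it. ABHD14B, which overlaps it, was at 12.7 CPM in control siRNA, 22.4 CPM in si-hnRNPK, 15.5 CPM in the LBCS-labelled library and 10.97 CPM in si-PTBP1. ABHD14B thus was above control in si-hnRNPK, with a difference of 0.77, and not in si-PTBP1, at -0.19. ABHD14A, on the opposite strand within the locus, was above control in all 3, with differences of 0.33 in si-hnRNPK, 0.27 in the LBCS-labelled library and 0.21 in si-PTBP1. PARP3, a poly(ADP-ribose) polymerase gene 8587 bases away, differed by 0.46 in si-hnRNPK, 0.16 in the LBCS-labelled library and 0.56 in si-PTBP1. These differences are on the log2(CPM + 1) scale, and none reached 1.

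**Figure D3:**
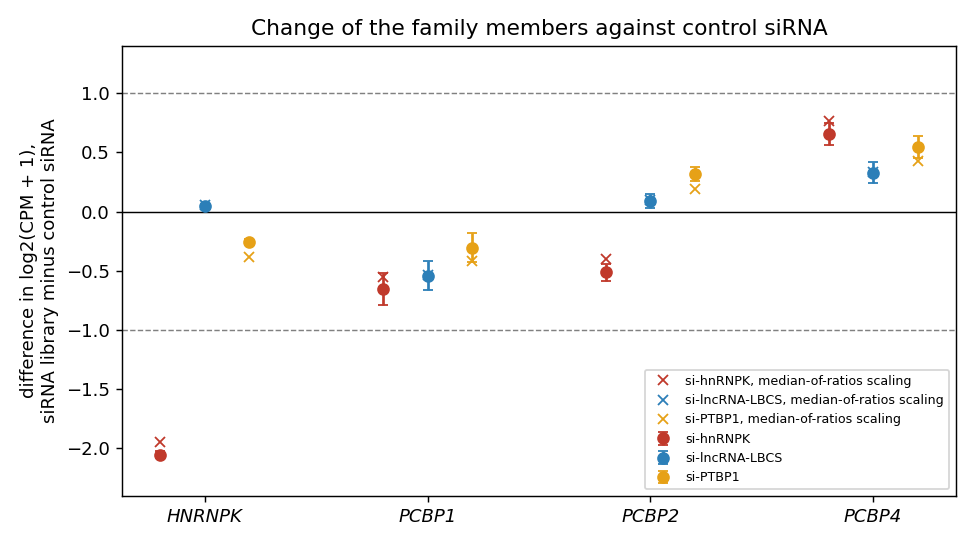
Difference in log2(CPM + 1) of each member, siRNA library minus control siRNA; points with bars are the values with 95% intervals of the reads, crosses are the values after median-of-ratios scaling, and dashed lines mark the threshold of 1. Only HNRNPK in si-hnRNPK, at -2.05, lies beyond a dashed line, and PCBP4 lies above 0 and PCBP1 below 0 in all 3 comparisons.

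At a lower threshold of 1.5-fold, PCBP1 also passed downwards and PCBP4 upwards in si-hnRNPK, and no member passed in the other libraries. With median-of-ratios scaling PCBP1 in si-hnRNPK, at -0.55, no longer reached 1.5-fold on the log2(CPM + 1) scale. In scaled CPM without the pseudocount it was at 66.3% of control, so it lay close to that threshold. The share of all genes past 1.5-fold in si-hnRNPK was 9.89% upwards and 15.8% downwards. It was 4.14% and 5.74% in the LBCS-labelled library, and 12.1% and 3.12% in si-PTBP1. The median difference over all genes tested was -0.11 in si-hnRNPK, -0.01 in the LBCS-labelled library and 0.12 in si-PTBP1. After median-of-ratios scaling PCBP4 in si-hnRNPK was at 0.76. PCBP2 was then at -0.40 in si-hnRNPK and 0.19 in si-PTBP1. All 12 differences kept their direction under this scaling.

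Within a library, the ratio of a PCBP gene to HNRNPK does not depend on the scale between libraries. In control siRNA there were 22.2 reads of PCBP1, 89.9 of PCBP2 and 34.2 of PCBP4 for 1000 reads of HNRNPK. In si-hnRNPK these became 56.8, 260.8 and 227.6 reads. Relative to HNRNPK, PCBP1 was thus 2.56 times (2.30 to 2.84), PCBP2 2.903 times (2.75 to 3.06) and PCBP4 6.65 times (6.22 to 7.12) its control value. HNRNPK itself was the gene knocked down, so a gene with unchanged deposited CPM would give 4.17 times. PCBP1 and PCBP2 lay below that value and PCBP4 above it. Unlike the ratios, the value of 4.17 depends on the scale between libraries, so this order restates the changes in CPM. In si-PTBP1 the ratio was 0.954 times control for PCBP1 (0.868 to 1.05), 1.49 times for PCBP2 (1.43 to 1.55) and 1.77 times for PCBP4 (1.65 to 1.89). In the LBCS-labelled library it was 0.648, 1.03 and 1.23 times control. Only PCBP1 in si-PTBP1 and PCBP2 in the LBCS-labelled library had intervals that held 1.

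The family as a whole lost most of its reads in si-hnRNPK through HNRNPK. The CPM of the 4 members summed to 897.6 in control siRNA, 290.2 in si-hnRNPK, 928.1 in the LBCS-labelled library and 797.4 in si-PTBP1. The sum of the PCBP genes alone was 114.5, 102.4, 120.5 and 141.3 CPM in the same order. In si-hnRNPK the PCBP sum was 89.4% of control, with PCBP4 higher and PCBP1 and PCBP2 lower, and in si-PTBP1 it was 123.3% of control.

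Per kb of exons, HNRNPK made up 85.5% of the family in control siRNA, 60.8% in si-hnRNPK, 86.3% in the LBCS-labelled library and 81.2% in si-PTBP1. The share of PCBP4 was 4.001% in control siRNA and 18.9% in si-hnRNPK, and it was 4.95% and 6.71% in the LBCS-labelled library and si-PTBP1. These shares depend on the length used and on how reads in overlapping exons were counted, which is not given. With the median coding transcript, PCBP4 held 7.53% in control siRNA, 29.8% in si-hnRNPK, 9.12% in the LBCS-labelled library and 11.9% in si-PTBP1, and HNRNPK held 46.7% in si-hnRNPK against 78.6% in control siRNA. HNRNPK was first in every library whichever of 4 exon lengths was used. The order of the PCBP genes was not settled. With the union of exons, the order per kb in control siRNA was PCBP1, PCBP2 and PCBP4. With the longest coding transcript it was PCBP2, PCBP4 and PCBP1. In si-hnRNPK PCBP4 came second with 3 of the 4 lengths. With exons that no other gene overlaps, PCBP1 came second there.

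**Figure D4:**
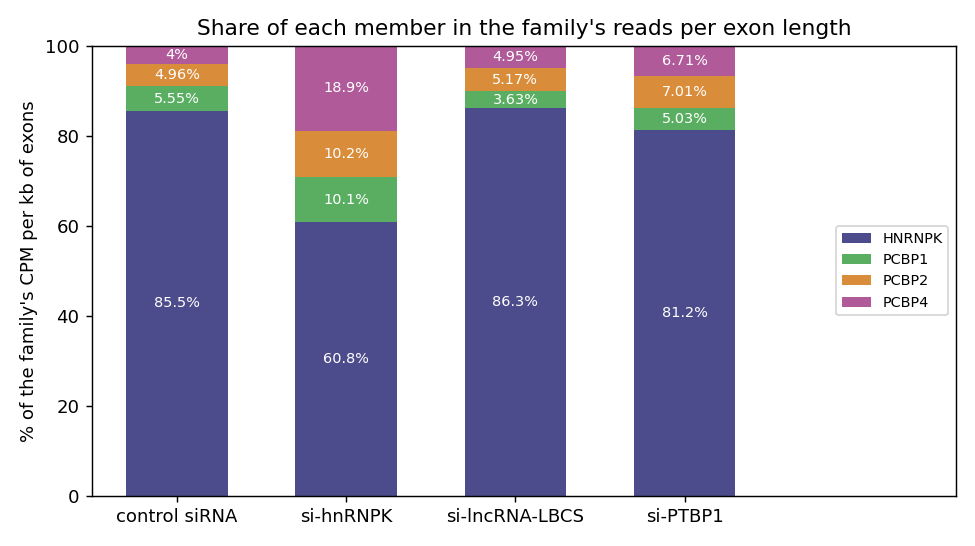
Share of each member in the family's CPM per kb of exons (union of annotated exons), in percent, for each library. HNRNPK holds 60.8% of the si-hnRNPK bar against 81.2% to 86.3% in the other libraries, and PCBP4 holds 18.9% of it.

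Other genes with related names were low. PCBP3, the remaining gene of the poly(C)-binding group, had 50 reads (0.815 CPM) in control siRNA, 76 (1.399 CPM) in si-hnRNPK, 90 (1.28 CPM) in the LBCS-labelled library and 161 (2.87 CPM) in si-PTBP1. In si-PTBP1 its difference of 1.09 in log2(CPM + 1) passed the threshold, which it did not with median-of-ratios scaling. The pseudogene HNRNPKP4 had 19, 9, 68 and 44 reads in the same order of libraries, against at least 10198 reads of HNRNPK. How reads were shared between the copies is not given in the sources used here. PCBP2P1, a pseudogene, had between 10 and 25 reads. RMI1, a gene of the complex that resolves DNA crossovers, starts 95 bases from HNRNPK on the other strand. It was at 11.9 CPM in control siRNA, 8.73 in si-hnRNPK, 11.3 in the LBCS-labelled library and 11.6 in si-PTBP1.

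The 3 genes most like each member were found by the root mean square (RMS) difference of log2(CPM + 1) over the 4 libraries, after the mean of each gene was taken off, among 9424 other named genes that reached 10 CPM in a library. With 4 libraries many genes share a profile: 184 genes lay within 0.1 of PCBP1, 304 of PCBP2 and 165 of PCBP4. Nearest to PCBP1 were POLR3B (a subunit of RNA polymerase III), RUNDC1 and GPATCH4. Nearest to PCBP2 were OSBPL10, TBC1D2B and UFL1, an E3 ligase of the ubiquitin-like UFM1. Nearest to PCBP4 were CBX6 (a Polycomb protein), GGA1 (a sorting adaptor of the Golgi) and CLCN3.

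The profile of HNRNPK held the fall of the siRNA target itself, which 6 of 13672 genes matched or passed, HNRNPK included. Within 0.1 of this profile lay 1 gene. This was CEP55, a midbody protein needed in cytokinesis, at an RMS difference of 0.031. CEP55 was at 249.1 CPM in control siRNA, 59.1 in si-hnRNPK, 251.4 in the LBCS-labelled library and 216.8 in si-PTBP1. SGO2 (shugoshin 2, which guards centromeric cohesion) followed at 0.13, with 85.8 CPM in control siRNA and 21.7 in si-hnRNPK. ADD3 (an adducin of the membrane skeleton) was next at 0.18, with 12.8 and 3.63 CPM. Each of them was lowest in si-hnRNPK, which follows from their choice by likeness to HNRNPK.

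The longest 3′ UTRs of CEP55, SGO2 and ADD3 each held 1 match to TGCATAA, the letters that pair with the seed of siRNA-1, and none to those of siRNA-2. Among the 20 genes most like HNRNPK, 8 (40.0%) held TGCATAA, against 11.1% of all genes with a 3′ UTR in the comparison. Their 3′ UTRs were shorter, with a median of 751.5 bases against 1407. GAAGAGA, of siRNA-2, was held by 1 of the 20 (5.00%) against 19.7%. Among the 20 genes most like PCBP1, PCBP2 and PCBP4, TGCATAA was held by 2, 5 and 1. This search was chosen after the values were seen, has no test, and its part in the low values of these genes was not tested.

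**Figure D5:**
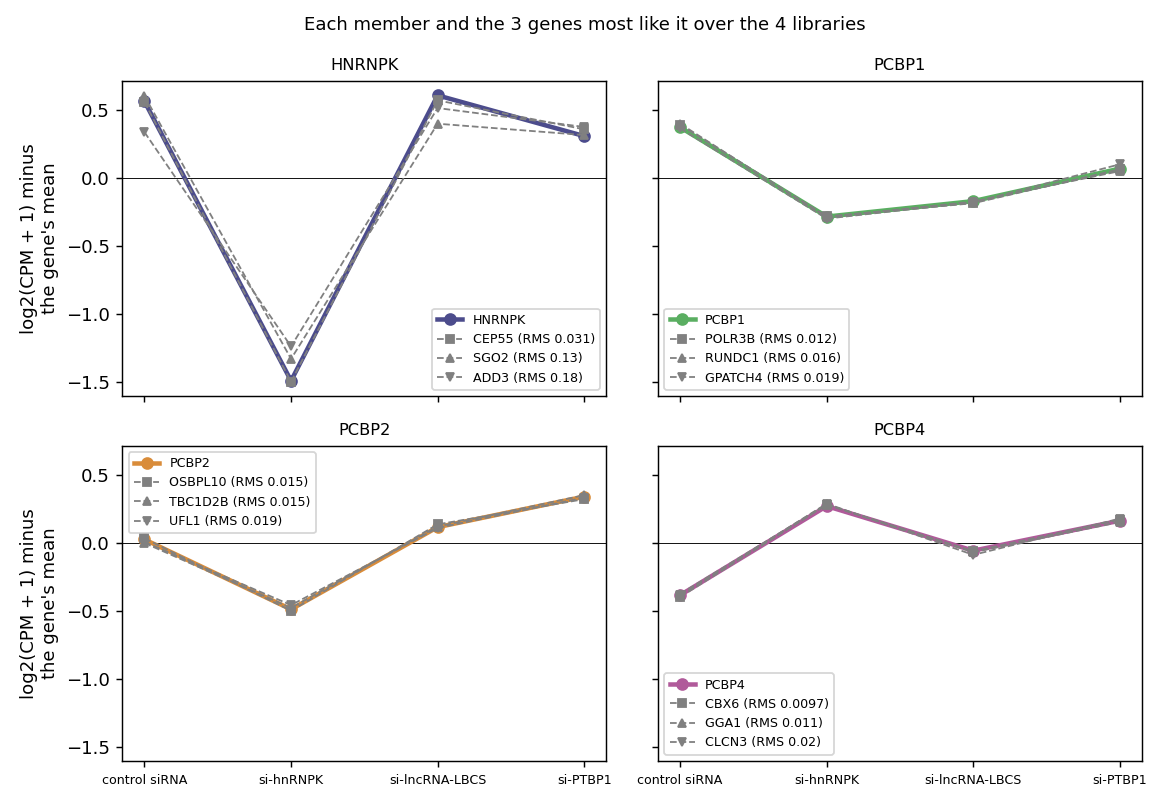
Log2(CPM + 1) minus the gene's own mean over the 4 libraries for each member (coloured) and the 3 genes with the smallest RMS difference to it (grey, dashed). HNRNPK and CEP55 overlie each other with a drop in si-hnRNPK, whereas PCBP1 is highest and PCBP4 lowest in control siRNA.

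Other genes of the pathways in which the family acts were counted from lists. Of 30 other genes of KH-domain RNA-binding proteins, 28 were measured. In si-hnRNPK 1 of the 28 was higher by 2-fold and 0 lower, beside 3.55% higher and 3.93% lower over all genes tested. The list had a median difference of -0.18 beside -0.11 over all genes. The higher gene was MEX3D, an RNA-binding ubiquitin ligase, at 14.6 CPM in control siRNA and 35.2 CPM in si-hnRNPK. It was also at 36.6 CPM in the LBCS-labelled library and 39.3 CPM in si-PTBP1, so it was above the control library by 1.22 to 1.37 on the log2(CPM + 1) scale in all 3 other libraries. In the LBCS-labelled library MEX3D was the gene that rose and NOVA2, a neuronal splicing factor, fell by 1.03. NOVA2 was at 1.38 CPM (85 reads) in control siRNA and 0.171 CPM (12 reads) in the LBCS-labelled library. It thus passed the filter of 1 CPM only through control siRNA, where it was higher. Over all genes tested in the LBCS-labelled library, 0.378% were higher and 1.01% lower. The list median was -0.14 beside -0.01 over all genes. In si-PTBP1 MEX3D and PCBP3 rose, none fell, and the median was 0.15 beside 0.12 over all genes. Over all genes tested there, 2.92% were higher and 0.613% lower. PCBP3 was at 0.815 CPM in control siRNA, so it was tested only through si-PTBP1, where it was high.

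Of 20 genes whose mRNA or promoter hnRNPK or a PCBP is described to bind, 9 were measured in si-hnRNPK. None of them passed 2-fold in either direction, beside 3.55% higher and 3.93% lower over all genes tested. Their median was -0.05 beside -0.11 over all genes. The list leaves out CCND1, G0S2, XAF1 and ERCC4, whose promoters the study reports as bound by hnRNPK, so these counts do not bear on them. In the LBCS-labelled library 0 of 9 passed, beside 0.378% higher and 1.01% lower over all genes tested. In si-PTBP1, where 10 of the list were measured, the collagen gene COL1A1 rose by 1.21, and none of the list fell. The list median was 0.36 beside 0.12 over all genes, of which 2.92% were higher and 0.613% lower. COL1A1 was at 0.407 CPM in control siRNA and 2.25 CPM in si-PTBP1. It was thus tested only through the library where it was high, and could not have been called lower.

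Of 15 genes of iron handling, 11 were measured, and 2 rose and 0 fell in si-hnRNPK, with a median of 0.30 beside -0.11 over all genes. Over all genes tested there, 3.55% were higher and 3.93% lower. HMOX1, the heme oxygenase that frees iron from heme, was at 47.7 CPM in control siRNA, 167.6 in si-hnRNPK, 12.5 in the LBCS-labelled library and 33.1 in si-PTBP1. It was 1.79 above control in si-hnRNPK and 1.85 below control in the LBCS-labelled library, a fall of 1 of 11 genes there, with a list median of 0.18 beside -0.01 over all genes, of which 1.01% were lower. FTH1, the heavy chain of ferritin, to which PCBP1 and PCBP2 carry iron, was at 32.0 CPM in control siRNA and 73.9 CPM in si-hnRNPK, a rise of 1.18. FTH1 was at 42.3 CPM in the LBCS-labelled library and 33.1 CPM in si-PTBP1. FTH1 has many processed copies in the genome, and how reads were shared among them is not given in the sources used here. In si-PTBP1 0 of 11 genes passed, with a median of 0.06 beside 0.12 over all genes. Of all genes tested there, 2.92% were higher and 0.613% lower.

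MAVS and cGAS are proteins of innate immune signalling with which PCBP1 and PCBP2 are described to act. All 7 genes listed around them were measured, and 0 passed in si-hnRNPK or si-PTBP1. Over all genes tested, 3.55% were higher and 3.93% lower in si-hnRNPK, and 2.92% were higher and 0.613% lower in si-PTBP1. The list medians were 0.04 and -0.04 beside -0.11 and 0.12 over all genes. STING1, the adaptor of cGAS, fell by 1.39 in the LBCS-labelled library, from 7.41 to 2.22 CPM. It was 1 of the 7 genes, where 1.01% of all genes tested were lower. The list median there was -0.12 beside -0.01 over all genes.

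The labels were checked on the other targets. PTBP1 was at 280.0 CPM in control siRNA and 89.7 CPM in si-PTBP1, or 32.0% of control (31.0% to 33.1%), and at 253.3 and 326.6 CPM in si-hnRNPK and the LBCS-labelled library. The gene that both siRNAs of the LBCS-labelled library match (ENSG00000228412) had 110 reads in control siRNA and 103 in that library, or 81.8% of control (61.9% to 108.0%). The label of that library was thus not borne out by its target at this depth. Of 17 urothelial markers, 5 or 6 were at 1 CPM or more, with summed levels of 157.4 to 220.5 CPM. The uroplakin genes UPK1A, UPK1B and UPK2 lay under 1 CPM in all libraries. The keratin genes KRT8, at 63.0 to 94.8 CPM, and KRT18, at 75.2 to 121.4 CPM, made up most of the urothelial sums. All 8 mesenchymal markers were at 1 CPM or more, with sums of 1809 to 2746 CPM, of which VIM held 1417 to 2343 CPM. Of 10 white blood cell markers, 0 reached 1 CPM. All 8 mesenchymal markers were tested in each comparison, with 6 urothelial markers in si-hnRNPK, 5 in the LBCS-labelled library and 6 in si-PTBP1. Among these markers TP63 and FN1 rose in both si-hnRNPK (1.38 and 1.70) and si-PTBP1 (1.33 and 1.87). Over all genes tested, 3.55% were higher in si-hnRNPK and 2.92% in si-PTBP1. TP63 was at 0.342 CPM in control siRNA, so it was tested only where it was high and could not have been called lower. At 0.513 CPM in the LBCS-labelled library TP63 was not tested, and none of the markers tested there passed. Of all genes tested in that library, 0.378% were higher and 1.01% lower.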

How the data were processed

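UM-UC-3 cells were studied in 4 RNA-seq libraries, 1 per condition, from total RNA sequenced as 100 bp paired-end reads. The authors deposited 1 table of CPM per library. The labels name hg19; the aligner, the counting method and its use of strand, and the annotation are not given in the sources used here. The CPM values gave whole reads (within 0.01 read) for 100% of the genes with reads. Libraries held 54301152 to 70232674 reads on listed genes.

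Changes are differences in log2(CPM + 1), which understate the change of low genes, tested where either library reached 1 CPM, with a threshold of 1. Intervals (95%) are Clopper-Pearson for 2 libraries, Poisson for a level and exact conditional for a ratio of 2 genes. Lists are given as counts past the threshold and medians. The members and lists were chosen with earlier results of these data known. Named genes are the members, their relatives by symbol, overlapping and neighbouring genes, the 3 genes most like each member, up to 4 genes per list and comparison past the threshold, and the targets of the other siRNAs; FN1 and TP63 are the markers past it. The uroplakin genes, KRT8, KRT18 and VIM were named after their values were seen. One result of the list of described targets is not reported here.

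Symbols matched 22024 of 27629 identifiers. Lengths, sites and transcripts are from GENCODE release 29 (GRCh38). Coding sequences were aligned globally by base (match 1, mismatch -1, gap opening -5, gap extension -0.5). These stand in for the planned comparison of proteins. Alternatives changed the scaling (median of ratios over 12362 genes), the pseudocount (0.1), the filter (none, or 5 CPM), the threshold (1.5-fold), the reference (geometric mean of the other 3 libraries), the gene length, and added an exact binomial test of the reads. On simulated si-hnRNPK reads of 13340 genes, which held counting error only, 200 genes were moved by 4-fold and 100% of them were recovered. The moved genes were drawn from those at 10 CPM or more in control siRNA, and 4-fold lies past the threshold. The simulation therefore does not bear on smaller changes or on low genes. Calculations used scipy 1.17.1, pandas 2.3.3 and statsmodels 0.14.6 on Python 3.11.15.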

Additional observations from a re-analysis of the deposited data

Results flagged for a closer look

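HNRNPK and PCBP2 were on opposite sides of the control library in different siRNA libraries, with intervals of the reads that did not hold 0. For HNRNPK the difference in log2(CPM + 1) was -2.05 in si-hnRNPK and 0.0444 in the LBCS-labelled library, and -0.255 in si-PTBP1. For PCBP2 it was -0.514 in si-hnRNPK, 0.0905 in the LBCS-labelled library and 0.315 in si-PTBP1. Each group is 1 library, all comparisons share the control library, and the difference between these libraries was not tested.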

How the results depend on the processing

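Of 84 recalculated member changes, 79 stayed in the same direction and on the same side of the threshold. Part of the 79 could not have moved. Every member lay above each filter in every library, so changing the filter returned the main values. The exact binomial test also kept the main values, and for changes short of the threshold it could not alter the outcome. The count of 79 therefore overstates how far the member changes were put to a test. With a threshold of 1.5-fold, PCBP1 (-0.657) and PCBP4 (0.655) in si-hnRNPK passed. With median-of-ratios scaling as well, PCBP1 narrowly missed it on the log2(CPM + 1) scale. Against the geometric mean of the other 3 libraries, HNRNPK in si-PTBP1 turned to 0.415, PCBP1 in si-PTBP1 to 0.0961 and PCBP4 in the LBCS-labelled library to -0.0736. HNRNPK in the LBCS-labelled library moved from 0.0444 to 0.814, and PCBP1 and PCBP4 in si-hnRNPK to -0.374 and 0.363. For si-PTBP1 and the LBCS-labelled library that reference holds the si-hnRNPK library, where HNRNPK and PCBP1 were lowest and PCBP4 highest. For si-hnRNPK it holds control siRNA, the LBCS-labelled library and si-PTBP1. Counts of genes past the threshold, higher and lower, were 486 and 537 in si-hnRNPK, 51 and 136 in the LBCS-labelled library, and 404 and 85 in si-PTBP1. With a pseudocount of 0.1 they were 790 and 995, 165 and 353, and 793 and 173. With 1.5-fold they were 1352 and 2165, 559 and 774, and 1673 and 432. The geometric mean reference gave 317 higher genes in si-hnRNPK, 6 in the LBCS-labelled library and 234 in si-PTBP1. Median-of-ratios scaling gave 256 higher and 132 lower genes in si-PTBP1. The causes of the moves with the pseudocount and the reference were not tested. Adding the exact binomial test of the reads left every member on its side of the threshold. For changes short of the threshold this outcome was fixed in advance, so the test bore only on HNRNPK in si-hnRNPK. It compares 2 libraries, not conditions. The other lengths moved 38 of 48 family shares by 1 percentage point or more; the exons that no other gene overlaps were chosen after seeing the data. Of 48 recalculated list counts, 13 moved by over 1.5 times or from 0. Depth limits PCBP1 most, with 579 reads in si-hnRNPK. No paired analysis was possible because each group is 1 library, and for the same reason no replicate could be left out.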
